A study of Rattus norvegicus with 24 samples.

Results

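The 39 genes described here encode the machinery of chromosome replication. They were chosen by gene symbol, with results of these data already known, and fall into 5 roles: 11 genes of origin recognition and helicase loading, 6 of helicase activation, 8 subunits of DNA polymerases and primase, 10 genes of the sliding clamp, lagging strand and single-strand binding, and 4 of nucleotide supply. All 39 were among the 17055 genes listed in the count tables, and all 39 passed the filter on low counts that left 9994 genes for testing. The lowest of them, Orc1, had 78 to 313 counts per library.

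RNA was measured in 24 libraries of PC12, a rat cell line from a pheochromocytoma, a tumour of adrenal chromaffin cells. Per the labels, a line stably carrying the empty pcDNA3 vector and a line stably expressing human α1ACT, a transcription factor made from the calcium channel gene CACNA1A, were each collected at the times 6 h, 24 h, 3 d and 10 d. Each of the 8 groups held 3 libraries, described as biological replicates; whether these were separate cultures is not stated, so the p-values measure only the spread between these libraries, which may be technical. All 8 groups were grown in the same serum-containing medium with no treatment. The labels do not say from which event time was counted or whether a line is 1 clone, and each kind of line is represented by 1 stable line. The human transgene has no row of its own in the tables, so its expression could not be used to check the labels. The counts assigned to genes summed to 8679560 to 14486248 in a library (median 11663500.5).

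The names of the deposited files go against the sample labels, and this bears on every direction given here. For 18 of the 24 libraries the file name gives another time than the label, and for 12 of these it gives the other line too, while the replicate number matches in all 24. Each labelled group corresponds to exactly 1 file-name group, with P in the titles standing for the vector and Q11 for α1ACT. The vector groups labelled 6 h, 24 h, 3 d and 10 d are named P 6H, P 3D, Q11 6H and Q11 3D. The α1ACT groups labelled 6 h, 24 h, 3 d and 10 d are named P 24H, P 10D, Q11 24H and Q11 10D. By file name, then, every difference between lines at a labelled time is a difference between times within P or within Q11. Below, "vector" and "α1ACT" are the labelled lines, "higher" and "lower" describe α1ACT relative to vector unless times are named, and log2 fold changes are given ± SE from the edgeR fit.

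Replication starts at origins marked by the origin recognition complex, which with Cdc6 and Cdt1 loads the ring-shaped Mcm helicase onto DNA. Mcm10, Cdc45 and the GINS complex turn the loaded ring into a moving helicase, polymerase α with primase starts each new strand, and polymerases ε and δ extend it while held by the clamp Pcna. Many genes of this machinery are transcribed at the entry into S phase under control of the E2F family of transcription factors, which bind sites related to TTTCCCGC and TTTGGCGC.

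Of the 39 genes, 34 had a RefSeq promoter entry (build GRCr8, 250 bases before to 50 bases after the start of the gene), and Orc1, Cdc6, Mcm4, Gins4 and Rrm2 had none. At least 1 of the letters TTTCCCGC, TTTCGCGC, TTTGCCGC or TTTGGCGC, searched on both strands, stood in 15 of these 34 promoters (44.1%) and in 716 of all 33469 promoters of the same length (2.14%). The motif set was chosen after the expression values were known. The windows of 60 bases shown here are those of the 8 genes with a match wholly before the start, whatever their change between groups. They read 5′ to 3′ on the strand of the gene, with the matched letters in capitals, and where forms of both strands overlap, as in TTTCGCGCGAAA, the capitals cover both.
Mcm2, chr4:122918095-122918154, minus strand: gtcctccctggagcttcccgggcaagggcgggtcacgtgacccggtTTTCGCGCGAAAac
Mcm5, chr19:13488753-13488812, plus strand: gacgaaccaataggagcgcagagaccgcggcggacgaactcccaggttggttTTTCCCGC
Mcm6, chr13:42404454-42404513, minus strand: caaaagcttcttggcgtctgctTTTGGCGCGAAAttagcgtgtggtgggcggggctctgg
Mcm7, chr12:22163197-22163256, minus strand: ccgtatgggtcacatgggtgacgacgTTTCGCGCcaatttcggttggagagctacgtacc
Gins1, chr3:160184860-160184919, plus strand: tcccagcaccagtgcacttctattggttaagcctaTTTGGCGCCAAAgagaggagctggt
Gins3, chr19:9434682-9434741, minus strand: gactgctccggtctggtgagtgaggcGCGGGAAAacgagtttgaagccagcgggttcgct
Pola1, chrX:62342494-62342553, minus strand: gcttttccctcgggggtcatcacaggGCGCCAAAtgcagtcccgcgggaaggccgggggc
Tyms, chr9:120776087-120776146, minus strand: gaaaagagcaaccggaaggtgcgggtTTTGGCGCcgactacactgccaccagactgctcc

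Where a promoter held several matches, the one nearest the start of the gene is shown. The first matched base lay 8 bases before the start in Mcm5, 37 in Tyms, 36 in Gins3, 52 in Mcm7 and 172 in Pola1. The other letters searched were also counted. The letters CCAAT stood in 61.8% of the 34 promoters and 37.5% of all, and GGGCGG in 64.7% and 33.1%. TTTGAA, the core of an element known from promoters of mitotic genes, stood in 3 of the 34 (8.82%) and 18.3% of all promoters, against 19 of 25 promoters (76%) of a list of mitosis genes, in which the E2F-related letters stood in 1 (4%). At the labelled 24 h the median log2 fold change between lines was 1.03 for the 15 replication genes with a match and 0.94 for the 19 without, and at 10 d 0.96 and 0.91. A match is a run of letters, and binding was not measured.

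Nearly all of the 39 genes shared a course over the 8 groups. They were low in the vector groups labelled 24 h and 10 d, the groups that the file names call P 3D and Q11 3D, and higher in the other 6 groups. In 36 of the 39 genes all 6 libraries of those 2 groups lay below all 18 other libraries, an arrangement found in 10.8% of all tested genes, with the reverse in 9.98%; this pair of groups was singled out after the values were seen. The 3 exceptions were Orc2, Cdt1 and Pold1. Together the 39 genes took 0.309% ± 0.0345 and 0.270% ± 0.0158 of gene counts in the vector 24 h and 10 d groups (SD, n = 3), and 0.525% to 0.663% in the other 6 groups, in terms of group means. Between the highest and the lowest group mean the median gene of the list spanned 1.36 on the log2 scale (0.41 to 2.22), against 0.60 over all tested genes. The lowest group mean was in vector 10 d for 33 genes, in vector 24 h for 5 and in α1ACT 3 d for Orc2. The highest was spread more widely, over α1ACT 24 h (14 genes), vector 6 h (11), vector 3 d (7), α1ACT 6 h (6) and α1ACT 3 d (1). In bulk RNA, fewer cells in S phase and less of these RNAs per cell cannot be told apart.

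**Figure D1:**
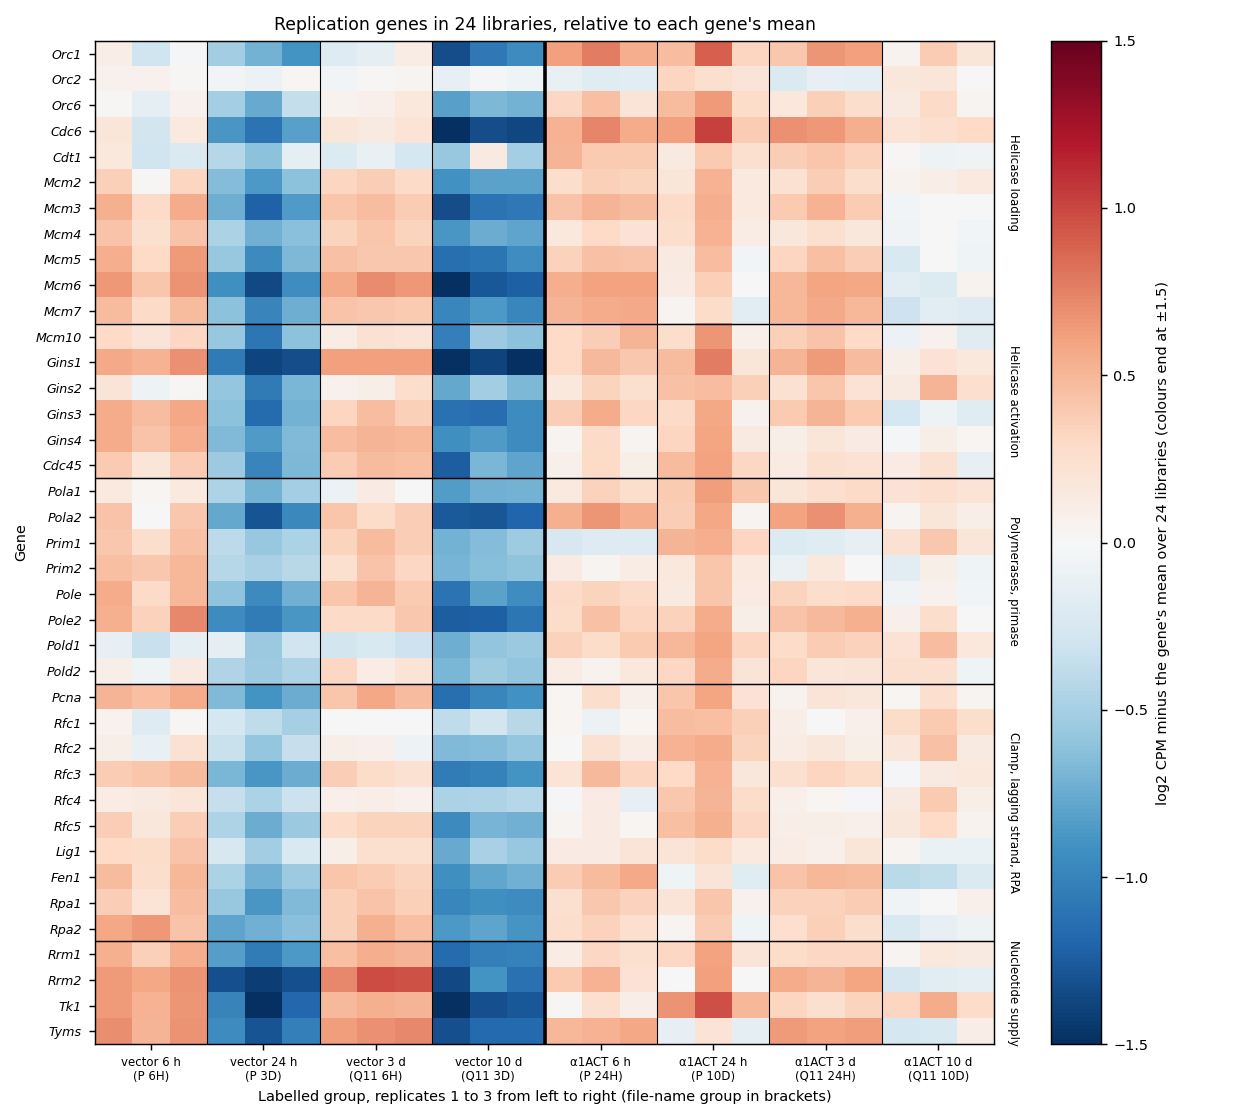
Each row is a replication gene and each column a library, in labelled groups with the file-name group in brackets; colour is log2 CPM minus the gene's mean over the 24 libraries. The columns of the vector 24 h and 10 d groups are blue for nearly all of the 39 genes, and Orc2 is nearly flat.

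Among the genes that load the helicase, Cdc6 and Mcm6 varied most and Orc2 least. Levels are given as CPM, counts of a gene per 1000000 gene counts after TMM scaling of the library sizes. Cdc6, the loader recruited by the origin complex, was at 48.8, 35.5 and 47.6 CPM in the vector libraries at 6 h, 23.5, 19.9 and 24.4 at 24 h, 48.4, 47.1 and 49.5 at 3 d and 14.4, 17.1 and 16.6 at 10 d. In the α1ACT libraries Cdc6 stood at 61.8, 71.3 and 63.1 CPM at 6 h, 65.6, 87.3 and 55.8 at 24 h, 68.8, 67.3 and 62.7 at 3 d and 49.5, 51.1 and 52.9 at 10 d. The vector libraries at 24 h and 10 d lay below all others, and the α1ACT libraries lay above the vector libraries at each labelled time. Cdc6 was higher at all 4 labelled times, by 0.58 ± 0.12 at 6 h, 1.61 ± 0.12 at 24 h, 0.46 ± 0.12 at 3 d and 1.68 ± 0.14 at 10 d (edgeR adjusted p = 0.000352, 5.82e-11, 0.00299 and 1.22e-10).

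Mcm6, a subunit of the helicase ring, stood at 478, 405 and 485 CPM in the vector libraries at 6 h, 161, 119 and 159.6 at 24 h, 450.3, 495 and 477 at 3 d and 105, 126 and 131 at 10 d. Its α1ACT values were 444, 461 and 462 CPM at 6 h, 330.3, 391 and 306 at 24 h, 429, 457 and 454 at 3 d and 271, 264 and 315 at 10 d. The 6 h and 3 d libraries of both lines overlapped, and the 24 h and 10 d libraries were lower than these in each line. Mcm6 was not called between the lines at 6 h (edgeR adjusted p = 0.999) or 3 d (-0.09 ± 0.10), and its line difference was 1.22 ± 0.10 at 24 h and 1.23 ± 0.10 at 10 d (edgeR adjusted p = 1.66e-10 and 1.74e-10). The other 5 ring subunits, Mcm2, Mcm3, Mcm4, Mcm5 and Mcm7, shared the calls of Mcm6 between the lines. None of the 6 was called between the lines at 6 h or 3 d. All 6 were higher, by 0.83 to 1.25 at 24 h and by 0.72 to 1.23 at 10 d.

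Orc2, a core subunit of the origin complex, kept within 87.2 to 128 CPM in all 24 libraries. It was at 106, 106 and 103 CPM in the vector libraries at 6 h, 98.5, 95.8 and 102 at 24 h, 98.5, 103 and 104 at 3 d and 93.0, 99.7 and 96.9 at 10 d, and at 94.0, 89.4 and 91.2 CPM at 6 h, 128, 119.7 and 116 at 24 h, 87.2, 93.2 and 92.5 at 3 d and 115, 115 and 102 at 10 d in the α1ACT line. Its order differed from that of the ring. At 6 h and 3 d the α1ACT libraries of Orc2 lay below the vector libraries of the same labelled time. At 24 h and 10 d they lay above them. Orc2 was lower at 6 h (-0.20 ± 0.05) and 3 d (-0.16 ± 0.05), and higher at 24 h (0.29 ± 0.05) and 10 d (0.20 ± 0.05; edgeR adjusted p = 0.00349, 0.0162, 2.76e-05 and 0.00212). The 3 d call of Orc2 ended without vector replicate 3 or α1ACT replicate 1 of that time.

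Orc1, the regulated ATPase subunit of the origin complex, was higher at each labelled time, by 0.71 ± 0.14, 1.28 ± 0.14, 0.64 ± 0.14 and 1.32 ± 0.16 at 6 h, 24 h, 3 d and 10 d. Orc6, the smallest subunit, was higher at 6 h (0.34 ± 0.09), 24 h (0.99 ± 0.09) and 10 d (0.90 ± 0.10), and was not called at 3 d (0.17 ± 0.09, edgeR adjusted p = 0.149). Cdt1, the partner of Cdc6 that is destroyed in S phase, was higher at 6 h (0.54 ± 0.14), 24 h (0.62 ± 0.14) and 3 d (0.57 ± 0.14). It was not called at 10 d (0.25 ± 0.15, edgeR adjusted p = 0.145). The vector libraries of that group read 14.8, 24.2 and 15.5 CPM against 22.4, 20.9 and 21.2, and without vector replicate 2, the highest of them, Cdt1 passed.

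In the activation step, Gins1 and Gins3, subunits of the GINS complex, varied most and Mcm10, an initiation factor, least. Gins1 was at 48.5, 47.0 and 52.9 CPM in the vector libraries at 6 h, 15.8, 12.6 and 13.04 at 24 h, 50.4, 50.3 and 50.2 at 3 d and 10.5, 12.5 and 11.5 at 10 d. In the α1ACT line it was at 40.3, 46.2 and 43.6 CPM at 6 h, 45.8, 55.9 and 37.4 at 24 h, 46.7, 50.9 and 45.8 at 3 d and 34.9, 38.2 and 36.7 at 10 d. Its vector libraries at 24 h and 10 d stayed under 16 CPM, and every other library was above 34 CPM. The α1ACT level of Gins1 was 3.33-fold the vector level at 24 h (1.74 ± 0.11) and 3.18-fold at 10 d (1.67 ± 0.12; edgeR adjusted p = 2.20e-12 and 1.28e-11).

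Gins3 was at 58.7, 54.7 and 59.7 CPM in the vector libraries at 6 h, 26.1, 17.9 and 24.4 at 24 h, 49.8, 54.9 and 51.2 at 3 d and 18.4, 18.0 and 20.7 at 10 d. Its α1ACT values were 51.4, 58.6 and 49.4 CPM at 6 h, 48.7, 59.3 and 41.7 at 24 h, 52.3, 56.6 and 52.3 at 3 d and 33.1, 37.7 and 35.1 at 10 d. Here the α1ACT 10 d libraries also stood apart, below the other α1ACT libraries and above the low vector libraries. Mcm10 stood at 41.9, 38.8 and 42.3 CPM in the vector libraries at 6 h, 22.96, 16.1 and 22.2 at 24 h, 36.7, 39.7 and 39.3 at 3 d and 16.6, 23.3 and 22.3 at 10 d, and in the α1ACT line at 41.7, 44.0 and 48.5 CPM at 6 h, 40.7, 53.9 and 35.7 at 24 h, 43.5, 45.7 and 41.8 at 3 d and 32.0, 35.6 and 30.0 at 10 d. Its line difference was 1.07 ± 0.13 at 24 h and 0.65 ± 0.14 at 10 d (edgeR adjusted p = 1.20e-07 and 0.000213). Gins2 (1.17 ± 0.11 and 0.96 ± 0.12), Gins4 (1.08 ± 0.09 and 0.93 ± 0.09) and Cdc45 (1.18 ± 0.11 and 0.97 ± 0.12) were higher at both times as well. At 6 h and 3 d Gins4 was the only called gene of the 6, with -0.38 ± 0.08 and -0.36 ± 0.08, both lower.

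Among polymerase subunits, Pola2, the regulatory subunit of polymerase α, stood at 99.3, 73.6 and 97.7 CPM in the vector libraries at 6 h, 43.3, 30.1 and 37.9 at 24 h, 98.8, 89.4 and 95.6 at 3 d and 30.8, 30.4 and 32.3 at 10 d. In the α1ACT line it was at 107, 116 and 108 CPM at 6 h, 95.3, 110.3 and 76.1 at 24 h, 112, 119 and 107 at 3 d and 75.9, 83.9 and 78.2 at 10 d. Pole2, a subunit of the leading-strand polymerase ε, was at 34.2, 30.1 and 39.1 CPM in the vector libraries at 6 h, 12.3, 11.5 and 12.97 at 24 h, 29.0, 28.9 and 31.3 at 3 d and 10.1, 10.2 and 11.2 at 10 d. Its α1ACT values were 28.7, 32.2 and 29.7 CPM at 6 h, 30.1, 34.8 and 25.3 at 24 h, 32.0, 33.3 and 34.2 at 3 d and 24.96, 28.4 and 23.7 at 10 d. In both genes the low vector libraries lay below every other library. At 24 h the α1ACT level was 2.51-fold that of the vector line in Pola2 and 2.43-fold in Pole2. Pold2, a subunit of polymerase δ, moved least in this role, at 38.5, 34.8 and 40.0 CPM in the vector libraries at 6 h, 26.4, 24.8 and 26.3 at 24 h, 45.2, 39.1 and 41.7 at 3 d and 22.6, 25.2 and 24.0 at 10 d and at 39.3, 37.5 and 40.6 CPM at 6 h, 44.8, 53.3 and 41.5 at 24 h, 45.5, 41.0 and 41.4 at 3 d and 42.9, 43.0 and 34.6 at 10 d in the α1ACT line. It was higher by 0.84 ± 0.09 at 24 h and 0.75 ± 0.09 at 10 d (edgeR adjusted p = 1.46e-08 and 1.76e-07), and not called at 6 h (0.05 ± 0.09) or 3 d (0.02 ± 0.09).

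The primase genes and Pold1 were among the genes called between the lines at all 4 labelled times. Prim1, the catalytic primase subunit, read 253, 260.4 and 261 CPM in α1ACT 6 h and 258, 262 and 274 in α1ACT 3 d, below the 394, 357 and 404 and 375, 413 and 384 of the vector line at these times, with no overlap. In α1ACT 24 h and 10 d it rose to 424, 432 and 371 and 349, 395 and 336, against 226, 201 and 214 and 182, 189 and 205 in the vector line. Prim1 was thus lower at 6 h (-0.58 ± 0.07) and 3 d (-0.56 ± 0.07) and higher at 24 h (0.94 ± 0.07) and 10 d (0.91 ± 0.07; edgeR adjusted p = 1.54e-07, 2.68e-07, 1.19e-11 and 2.04e-11). Prim2, the large primase subunit, had the same signs, with -0.36 ± 0.07, -0.31 ± 0.07, 0.69 ± 0.07 and 0.61 ± 0.08, all 4 past the threshold. Pold1, the catalytic subunit of polymerase δ, was higher at all 4 labelled times, by 0.54 ± 0.09, 0.80 ± 0.09, 0.60 ± 0.09 and 0.91 ± 0.09 at 6 h, 24 h, 3 d and 10 d. Its vector 24 h libraries, at 85.04, 64.3 and 76.7 CPM, overlapped those of vector 6 h (86.5, 75.1 and 86.3).

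Of the clamp and lagging-strand genes, Pcna, the sliding clamp itself, stood at 799, 769 and 827 CPM in the vector libraries at 6 h, 354, 303 and 335 at 24 h, 751, 839.8 and 779 at 3 d and 258, 285 and 300.4 at 10 d. In the α1ACT line it was at 574, 672 and 593 CPM at 6 h, 752, 848 and 653 at 24 h, 584, 644 and 630.1 at 3 d and 575, 667 and 579 at 10 d. The vector 6 h and 3 d libraries were above the α1ACT libraries of those times, and the vector 24 h and 10 d libraries at most at 354 CPM. Pcna was lower at 6 h (-0.38 ± 0.08) and 3 d (-0.35 ± 0.08), and higher at 24 h (1.18 ± 0.08) and 10 d (1.11 ± 0.08; edgeR adjusted p = 0.000536, 0.00127, 1.07e-11 and 2.99e-11).

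Rfc3, of the complex that loads the clamp, was at 97.5, 100.3 and 104 CPM in the vector libraries at 6 h, 46.7, 40.8 and 44.7 at 24 h, 96.8, 91.0 and 87.4 at 3 d and 36.2, 37.0 and 40.2 at 10 d. Its α1ACT values were 86.0, 105 and 93.7 CPM at 6 h, 92.0, 108 and 84.3 at 24 h, 88.4, 94.0 and 90.4 at 3 d and 73.9, 82.4 and 83.9 at 10 d. Rfc1, the large subunit of that complex, was at 87.2, 73.9 and 85.2 CPM in the vector libraries at 6 h, 70.3, 64.9 and 59.8 at 24 h, 84.0, 83.9 and 84.3 at 3 d and 64.9, 69.8 and 63.0 at 10 d, and at 86.1, 79.2 and 85.8 CPM at 6 h, 116, 115 and 108 at 24 h, 90.1, 84.3 and 88.6 at 3 d and 102, 111 and 101 at 10 d in the α1ACT line. In Rfc1 the α1ACT 24 h and 10 d libraries were above all 18 others, whereas in Rfc3 the α1ACT 24 h libraries overlapped the 6 h and 3 d libraries and the α1ACT 10 d libraries lay below them. The line difference was 1.10 ± 0.08 and 1.08 ± 0.08 for Rfc3 and 0.80 ± 0.06 and 0.67 ± 0.07 for Rfc1 at 24 h and 10 d, all 4 past the threshold. Fen1, which trims Okazaki fragments, and Lig1, which joins them, had the smallest 24 h differences of the role, 0.56 ± 0.08 and 0.52 ± 0.08. Rfc2, Rfc4, Rfc5, Rpa1 and Rpa2 were higher at 24 h by 0.78 to 1.01 on the log2 scale, and at 10 d by 0.67 to 0.97.

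In nucleotide supply, Rrm2, the regulatory subunit of ribonucleotide reductase, had the widest span of the 39 genes. Its levels were 66.7, 64.2 and 68.6 CPM in the vector libraries at 6 h, 17.3, 16.2 and 17.2 at 24 h, 71.0, 84.6 and 83.6 at 3 d and 16.8, 23.05 and 19.8 at 10 d. In the α1ACT line it was at 56.2, 61.7 and 50.03 CPM at 6 h, 43.0, 65.7 and 42.7 at 24 h, 62.9, 61.3 and 64.5 at 3 d and 36.2, 38.5 and 39.2 at 10 d. Vector 3 d was the highest group and vector 24 h the lowest, a 3.93-fold fall from 6 h to 24 h within the vector line (-1.97 ± 0.13, edgeR adjusted p = 1.22e-12). The α1ACT 24 h libraries were uneven, with replicate 2 above the other replicates.

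Tk1, the salvage thymidine kinase, was at 319.9, 295 and 325 CPM in the vector libraries at 6 h, 103, 66.4 and 91.2 at 24 h, 289.7, 298 and 295 at 3 d and 72.0, 82.8 and 85.7 at 10 d. Its α1ACT values were 209, 245 and 221 CPM at 6 h, 329, 403 and 292 at 24 h, 257, 243 and 261 at 3 d and 257, 304 and 249 at 10 d. The low vector libraries were at most at 103 CPM and all others at least at 209. Tk1 had the largest line difference of the list at 24 h, 3.91-fold (1.97 ± 0.11), and at 10 d, 3.37-fold (1.75 ± 0.12; edgeR adjusted p = 5.17e-13 and 3.34e-12), and was lower at 6 h (-0.48 ± 0.11, edgeR adjusted p = 0.00102). Rrm1, the catalytic subunit of the reductase, was at 631, 554 and 633 CPM in the vector libraries at 6 h, 246, 209.8 and 238 at 24 h, 594, 634 and 619 at 3 d and 194, 214 and 214 at 10 d, and at 471, 539 and 513 CPM at 6 h, 539, 659 and 496 at 24 h, 528, 538 and 537 at 3 d and 448, 483 and 476 at 10 d in the α1ACT line. It followed Pcna in being lower at 6 h (-0.25 ± 0.08) and 3 d (-0.20 ± 0.08) and higher at 24 h (1.29 ± 0.08) and 10 d (1.18 ± 0.08). Tyms, thymidylate synthase, was 2.09-fold higher at 24 h and 2.13-fold at 10 d.

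**Figure D2:**
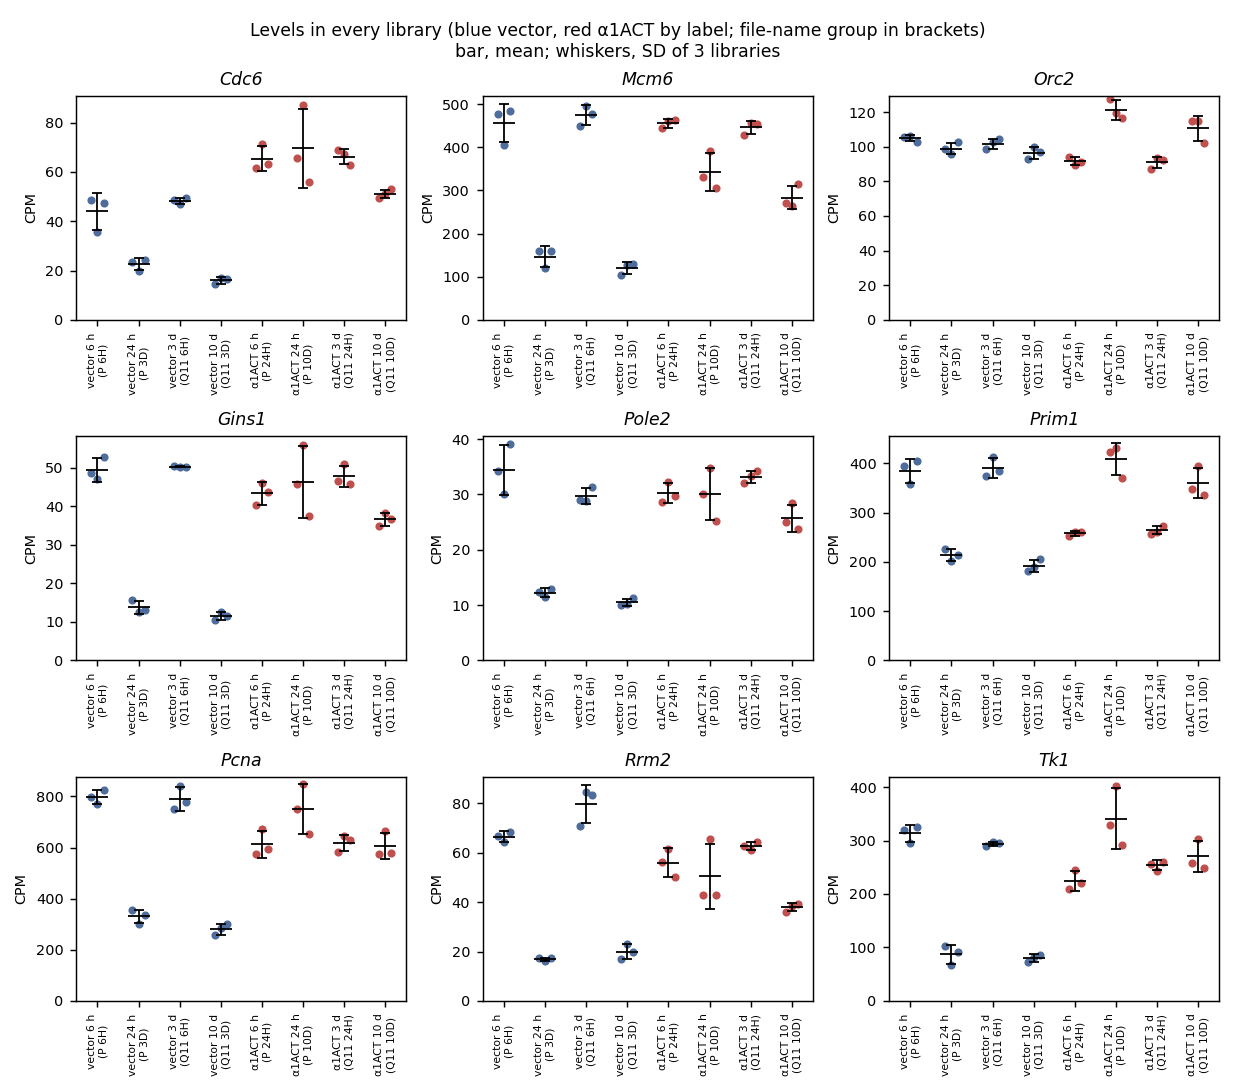
CPM of 9 replication genes in each library (points), with the mean (bar) and SD (whiskers) of the 3 libraries of each labelled group; the file-name group is in brackets. The vector 24 h and 10 d groups are the lowest in every panel but Orc2, and Prim1 and Pcna are lower in α1ACT 6 h and 3 d than in the vector line at those times.

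Between the lines, all 39 genes were higher in α1ACT at the labelled 24 h and 38 of 39 at 10 d, where Cdt1 was the exception. At 24 h the background was 26.6% of tested genes higher and 28.8% lower, and at 10 d 29.5% and 29.4%. The median log2 fold change was 1.01 at 24 h (range 0.29 to 1.97) and 0.93 at 10 d (0.20 to 1.75), beside -0.02 and 0.01 over all tested genes. Calls of at least 2-fold numbered 20 at 24 h and 12 at 10 d, a size reached upward by 3.49% and 3.5% of tested genes. Nucleotide supply had the highest median of the 5 roles at both times, 1.43 at 24 h and 1.13 at 10 d, and the clamp group the lowest, 0.86 and 0.79. By the file names these are P 10D against P 3D and Q11 10D against Q11 3D. The 24 h and 10 d comparisons share no library.

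At the labelled 6 h and 3 d the list did not move together. At 6 h 6 of the 39 genes were higher and 10 lower, against a background of 20.5% higher and 21.2% lower. At 3 d 5 were higher and 8 lower, against 19.9% and 19.4%. These shares are near the background. The median was -0.10 at 6 h and -0.03 at 3 d, and no member reached 2-fold. By role, the higher genes were in helicase loading (4 at 6 h, 3 at 3 d) and among polymerase subunits (2 and 2). The lower genes at 6 h included 4 of the clamp group and 2 of the 4 nucleotide supply genes.

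The calls at 6 h and 3 d, comparisons with no library in common, overlapped. Cdc6, Cdt1, Orc1 and Pold1 were higher in both, and Gins4, Orc2, Pcna, Prim1, Prim2, Rfc5 and Rrm1 lower in both. These 11 genes are 68.8% of those called at 6 h and 84.6% of those called at 3 d, beside 73.5% and 77.8% over all tested genes. The sign was the same in 36 of 39 genes (92.3%), beside 84.6% of all tested genes. Pearson's r of the log2 fold changes over the 39 genes was 0.94, a description only, since genes are not independent samples. The largest rises were those of Orc1 (1.64-fold at 6 h, 1.56-fold at 3 d), and the largest falls those of Prim1 (1.49-fold and 1.48-fold). By file name these compare the 24H with the 6H libraries, within P and within Q11.

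Some of these calls rest on few libraries. Leaving out any 1 of the 6 libraries at 6 h left 13 to 15 genes called, with Lig1 lost in each case and Pola2, Rfc5, Rrm1 and Rpa2 in some. Without replicate 1 of every group 9 were left and without replicate 2 of every group 24 were called. At 3 d leaving out any 1 library left 9 to 12, with Orc2, Pola1, Rfc5, Rrm1 and Rrm2 each lost in some. With library sizes in place of TMM factors the 3 d split became 6 higher and 5 lower, and over all genes 2323 of 3893 called genes were higher at 3 d, against 1991 of 3934. At 6 h the split became 7 and 9, with 2471 of 4097 called genes higher against 2045 of 4162.

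**Figure D3:**
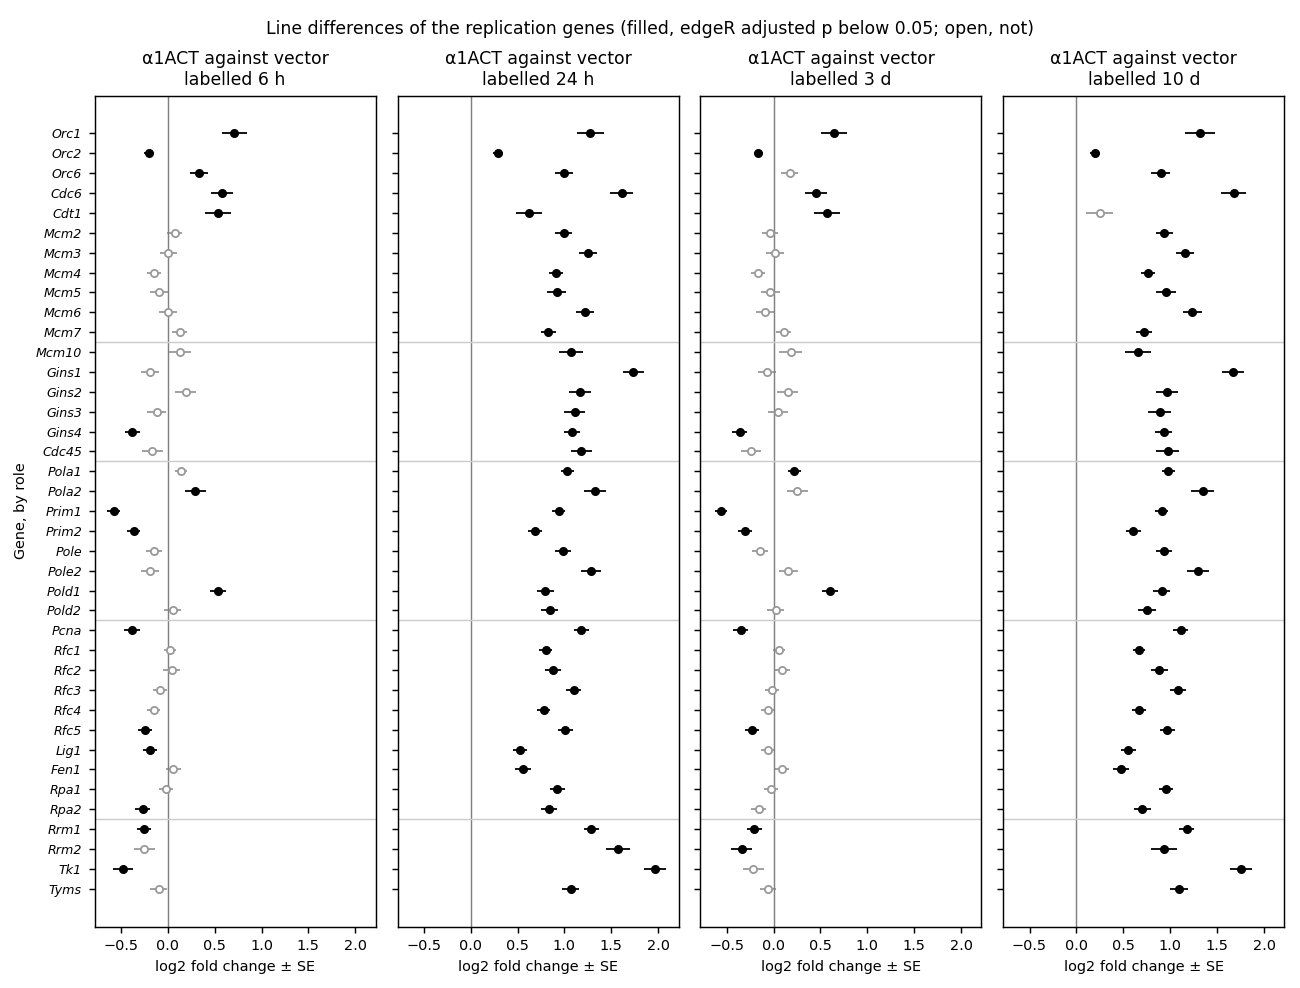
Log2 fold change of α1ACT against vector (± SE) for each of the 39 genes at the 4 labelled times; filled points pass an edgeR adjusted p of 0.05. At 24 h and 10 d all points lie to the right of 0, while at 6 h and 3 d they scatter around it, with Orc1, Cdc6, Cdt1 and Pold1 to the right and Prim1 furthest to the left.

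The difference between those times was itself tested. The line difference at 24 h exceeded that at 6 h in 37 of 39 genes, with a median of 1.03, against a background of 24.3% of tested genes in that direction and 27.1% in the other. The line difference at 10 d exceeded that at 3 d in 38 genes, with a median of 0.97 (background 25.9% and 26.3%). Cdt1 did not pass in either test (0.09 ± 0.19 and -0.32 ± 0.20), nor did Pold1 in the first (0.26 ± 0.12, edgeR adjusted p = 0.0737). Tk1 had the largest values, 2.44 ± 0.16 and 1.97 ± 0.16 (edgeR adjusted p = 6.47e-12 and 2.71e-10). Orc1 was lost from the first test without vector 6 h replicate 1, vector 24 h replicate 3 or α1ACT 24 h replicate 2, and Mcm10, Pold1 or both from the second without any 1 of 8 of its 12 libraries.

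Within the vector line, 36 of the 39 genes were lower at 24 h than at 6 h and none higher (background 29.9% lower, 31.6% higher), with a median of -0.99 and 19 falls of at least 2-fold (background 4.99%). From 3 d to 10 d 37 were lower and none higher (background 31% lower, 33.2% higher), with a median of -1.28 and 26 falls of at least 2-fold (background 5.28%). The largest falls from 6 h to 24 h were those of Rrm2 (3.93-fold), Tk1 (3.59-fold) and Gins1 (3.56-fold). From 3 d to 10 d they were those of Gins1 (4.37-fold), Rrm2 (4.01-fold) and Mcm6 (3.94-fold). Orc2 (-0.09 ± 0.05 and -0.08 ± 0.05) and Cdt1 (-0.26 ± 0.14 and -0.09 ± 0.14) passed in neither, and Pold1 only in the later step (-0.35 ± 0.09). By file name these are 3D against 6H, within P and within Q11. Against the α1ACT 6 h group, named P 24H, the vector 24 h group was lower in 38 genes and higher in none (background 27% and 26.8%), with a median of -1.01. Against α1ACT 3 d, named Q11 24H, vector 10 d was lower in 38 and higher in none (background 29.7% and 28.6%), with a median of -1.14. Orc2 was the exception in both. The largest falls were those of Rrm2 (3.31-fold), Gins1 (3.13-fold) and Mcm6 (3.10-fold) in the first and of Gins1 (4.16-fold), Cdc6 (4.14-fold) and Mcm6 (3.71-fold) in the second. All these comparisons use the vector 24 h or 10 d libraries again and are not independent of the line differences.

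Within the α1ACT line the genes split. At 24 h against 6 h, 12 were higher and 4 lower (background 21.7% and 22.4%), and at 10 d against 3 d 4 were higher and 19 lower (background 21.8% and 22.8%). Orc2, Prim1, Rfc1 and Rfc4 were higher in both, and Fen1, Mcm6, Mcm7 and Tyms lower in both, with no gene called in opposite directions. These 8 genes are 50% of those called in the earlier step and 34.8% of those called in the later one, beside 74.1% and 73.4% over all tested genes. Prim1 led the rises (0.66 ± 0.07 and 0.45 ± 0.07). The next largest called rises were those of Tk1 (0.60 ± 0.11) and Rfc1 (0.43 ± 0.06) in the earlier step and of Orc2 (0.28 ± 0.05) and Rfc1 (0.25 ± 0.06) in the later. Tyms led the falls in the earlier step (-0.54 ± 0.09, against -0.75 ± 0.09 later) and Fen1 in the later (-0.80 ± 0.08, against -0.49 ± 0.08 earlier). Mcm7 was next among the falls (-0.49 ± 0.08 and -0.74 ± 0.08). The 6 helicase ring genes ranged from -0.49 to 0.08 in the earlier step and from -0.74 to -0.19 in the later. By file name these are 10D against 24H, within P and within Q11.

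Libraries of the α1ACT 24 h group differed among themselves, with the 39 genes on average 0.20 above the group mean on the log2 scale in replicate 2 and 0.16 below it in replicate 3. Without its replicate 2, the count for 24 h against 6 h became 7 higher and 10 lower and the median turned from 0.08 to -0.06. The calls of Gins4, Cdc45, Pola1, Pold2 and Pcna then ended, and Mcm3, Mcm5, Pola2, Rpa1, Rpa2 and Rrm2 passed as lower. Those of Orc2, Prim1, Rfc1, Rfc2, Rfc4, Rfc5, Tk1, Mcm6, Mcm7, Fen1 and Tyms stood without any 1 of the 6 libraries.

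**Figure D4:**
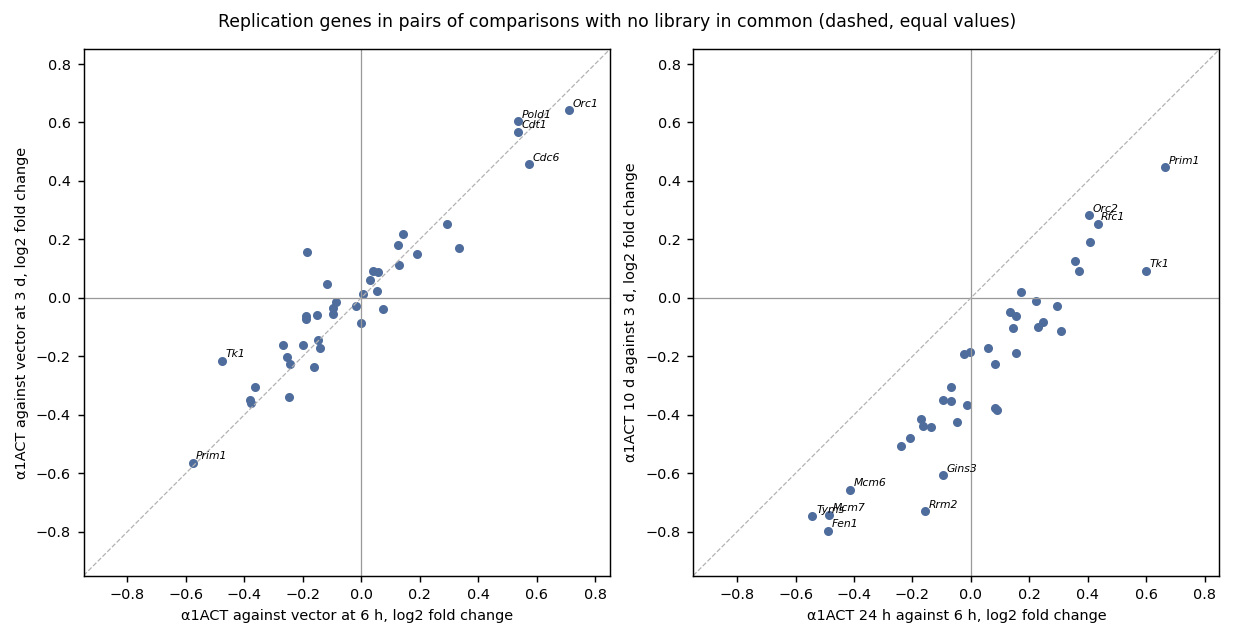
Each point is a replication gene, with its log2 fold change in 2 comparisons that share no library; the dashed line marks equal values. In the left panel (α1ACT against vector, 6 h and 3 d) points lie along the dashed line, and in the right panel (within α1ACT, 24 h against 6 h and 10 d against 3 d) most lie below it, with Prim1 at the upper end and Fen1, Tyms and Mcm7 at the lower end.

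Vector 3 d against 6 h gave no called gene among the 39 (background 1.14% higher and 0.33% lower by edgeR), with 2 genes at an unadjusted p under 0.05, Pole2 (-0.21 ± 0.10) and Rrm2 (0.26 ± 0.11), and none called by DESeq2. α1ACT 3 d against 6 h gave none either (background 0.8% and 0.26%), with 0 genes at an unadjusted p under 0.05 and none called by DESeq2. Over the 39 genes the root mean square difference of group means of log2 CPM was 0.0656 for that pair and 0.0951 for the vector pair, the closest of all pairs of groups. The other pairs that share a file-name time differed by 0.214 (vector 24 h and 10 d) and 0.281 (α1ACT 24 h and 10 d), the last being more than the 0.260 between the lines at 3 d. Over all tested genes the pairs that share a file-name time were the closest of all pairs. Their differences were 0.185 (α1ACT 6 h and 3 d), 0.194 (vector 6 h and 3 d), 0.215 (α1ACT 24 h and 10 d) and 0.222 (vector 24 h and 10 d). The next closest pair over all tested genes, the lines at 3 d, differed by 0.369.

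Vector 10 d was lower than vector 24 h in 5 genes and higher in none (background 3.15% and 4.29%), namely Cdc6, Mcm5, Pold1, Lig1 and Rpa1, with -0.50 ± 0.14 for Cdc6, -0.33 ± 0.10 for Mcm5 and -0.30 ± 0.09 for Pold1. α1ACT 10 d was lower than α1ACT 24 h in 13 genes and higher in none (background 2.41% and 2.21%), with all 39 fold changes below 0, a median of -0.27 and 36 genes at an unadjusted p under 0.05. Gins3 (-0.49 ± 0.11), Cdc6 (-0.44 ± 0.12) and Cdc45 (-0.38 ± 0.11) led (edgeR adjusted p = 0.0140, 0.0321 and 0.0459). Both counts rest on single libraries: none of the 5 or of the 13 was called without vector 24 h replicate 1 or 3 or vector 10 d replicate 1, and without α1ACT 24 h replicate 2 or α1ACT 10 d replicate 1 or 3, respectively. For the vector pair 14 genes were called without vector 24 h replicate 2, 1 without vector 10 d replicate 2 and 2 without vector 10 d replicate 3. For the α1ACT pair 5 genes were called without α1ACT 24 h replicate 1, 30 without its replicate 3 and 16 without α1ACT 10 d replicate 2. The line differences did not differ past the threshold between 3 d and 6 h (0 of 39 by edgeR and by DESeq2, 1 at an unadjusted p under 0.05, background 0%) or between 10 d and 24 h (0 of 39 by both, 2 at an unadjusted p under 0.05, background 0.06% and 0.01%).

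Genes of neighbouring functions moved with the list, to different extents. At the labelled 24 h, all 24 tested mitosis genes were higher (median 1.29), all 8 of replication-coupled chromatin assembly (median 1.05), 22 of 26 other replication genes (median 0.48, none lower), 12 of 16 regulators of S phase (median 0.69, none lower) and 12 of 17 other nucleotide enzymes, with 3 lower (median 0.28). Asf1b, a histone chaperone, was 3.67-fold higher, Ccna2, the S phase cyclin, 3.01-fold, and Exo1, a nuclease, 2.40-fold. Cad, the enzyme of the first steps of pyrimidine synthesis, was 1.63-fold lower (-0.70 ± 0.08). At 10 d the counts were 22 of 24 mitosis genes (median 1.03), 7 of 8, 21 of 26 with 1 lower, 12 of 16 with 1 lower, and 13 of 17 with 2 lower.

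The lists parted at the labelled 6 h, where 17 of 24 mitosis genes were lower and none higher (median -0.28), while the 39 replication genes were divided (6 higher, 10 lower). Prc1, which bundles spindle microtubules, was at -0.66 ± 0.08 and Cenpf, a kinetochore protein, at -0.46 ± 0.07. At 3 d 6 of the 24 mitosis genes were higher and 2 lower, against a background of 19.9% higher and 19.4% lower. Among other replication genes at 6 h 5 were higher and 7 lower of 26, against a background of 20.5% and 21.2%. Of these, Orc5, an origin complex subunit, was at 0.40 ± 0.07 and Ssrp1, a subunit of the histone chaperone FACT, at -0.28 ± 0.05. Whether these lists differ from the 39 genes was not tested.

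Markers of PC12 cells were present in every library. Of 7 such markers 6 were listed. Their summed level was 18124 to 24187 CPM in 6 groups and 24262 to 28278 CPM in the α1ACT 24 h and 10 d groups. The largest parts of the sum were Chgb (8841 to 14871 CPM) and Th (4761 to 8639), while Dbh was at 27.2 to 49.7. The markers did not all rise: between the lines 3 were higher and 1 lower at 24 h, and 4 higher and 0 lower at 10 d. Slc18a1 averaged 1313 CPM in vector 24 h and 1006 in α1ACT 24 h. Fibroblast markers (5 of 5 listed, none tested) summed to at most 0.587 CPM, with Col1a2 and Lum at 0. Of the other lists, Sox10, Ptprc, Aif1 and Kdr were at 0 in all libraries, Cd68 reached at most 3.45 CPM and Pecam1 1.93. Reads outside annotated genes made up 50.4% and 50.9% in the vector 24 h and 10 d groups, 51.6% and 52.5% in α1ACT 24 h and 10 d, and 48.7% to 49.9% in the 6 h and 3 d groups. The part of these reads and of the PC12 marker levels in the differences of the replication genes was not tested.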

How the data were processed

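Each library was deposited as raw counts of reads per gene symbol; the submitters' processing notes list build rn5, edgeR, HTSeq 0.5.4p5, TopHat2 2.0.10, Picard 1.117 and FastQC 0.11.2. The sources used here give neither the role of each tool nor the annotation and strand setting. The labels describe total RNA depleted of ribosomal RNA and a stranded kit. The rows that name no gene entered neither library sizes nor tests. The share of reads outside annotated genes (47.8% to 52.9% in a library) was taken over gene, outside and ambiguous reads. Non-unique alignments were left out of that total.

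Groups came from the sample labels. Genes were kept by edgeR 4.0.16 (R 4.3.3) filterByExpr by group (minimum count 10, minimum total 15), scaled by TMM and fitted with 1 coefficient per group over the 24 libraries (16 residual degrees of freedom). Quasi-likelihood F tests gave p-values adjusted by Benjamini-Hochberg over 9994 genes, with a threshold of 0.05, and log2 CPM used a prior count of 2. The fit was tested on simulated data, where the required recovery of 2-fold changes was missed over all changed genes. Recovery was then judged only on genes at or above the mean count of the lowest member. Alternatives were RLE factors, library sizes alone, no filter, DESeq2 1.42.0, a fit to the compared groups alone, a replicate block, and libraries left out.

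Same-numbered libraries were taken to deviate together where all 3 correlations over genes exceeded 0.1. Only the lines at 3 d met this cut (0.124, 0.318 and 0.139). The lines at 6 h (0.164, 0.342 and 0.0980) and vector 24 h against 6 h (0.112, 0.232 and 0.0985) fell just short of it. The replicate numbers come from the sample titles.

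The 39 genes and the other lists were chosen with earlier results of these data known. Levels in every library are given for the 2 genes with the widest and the 1 with the narrowest span of group means in each role, and for Prim1, which was chosen after its values were seen, as were the groups whose libraries are given for Cdt1 and Pold1. In each comparison of a pair of groups the 3 largest called rises and falls are named, and from other lists genes among the 4 with the smallest p. No gene lengths were used, so levels are not compared between genes.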

Additional observations from a re-analysis of the deposited data

Results flagged for a closer look

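The line difference of the replication genes depended on the labelled time by a test of that dependence (edgeR interaction term). It was larger at 24 h than at 6 h in 37 of 39 genes, with 2.44 for Tk1, whose line difference was -0.48 at 6 h and 1.97 at 24 h. It was larger at 10 d than at 3 d in 38 of 39 genes, with 1.97 for Tk1, whose line difference was -0.21 at 3 d and 1.75 at 10 d. By file name the first contrasts steps in time within P and the second steps in time within Q11.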

How the results depend on the processing

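Some counts of called replication genes stayed within 1.5 times under all alternatives run. They were those for the lines at 24 h and 10 d and for the interactions. The same held within the vector line for 24 h against 6 h and 10 d against 3 d. It also held for vector 24 h against α1ACT 6 h and vector 10 d against α1ACT 3 d. Fitting the compared groups alone called 20 genes for the lines at 3 d (7 higher), 1 for vector 10 d against 24 h and 0 for α1ACT 10 d against 24 h. RLE factors called 3 for vector 10 d against 24 h, and no filter called 25 for α1ACT 10 d against 24 h. With replicates left out the counts ranged from 9 to 24 for the lines at 6 h, 8 to 16 at 3 d, 10 to 25 for α1ACT 24 h against 6 h, 14 to 25 for α1ACT 10 d against 3 d, 0 to 25 for vector 10 d against 24 h, 0 to 30 for α1ACT 10 d against 24 h, and 0 to 1 for 3 d against 6 h in either line (Prim2 in vector, Tk1 in α1ACT). Why these counts changed was not tested. Without replicate 2 of every group the median of α1ACT 24 h against 6 h was -0.03. A replicate block met the cut on correlations between the lines at 3 d alone, with the lines at 6 h just short of it. With the block 13 genes were called at 3 d, as without it. Elsewhere it called 17 at 6 h, 39 at 24 h and 38 at 10 d. It called 25 for α1ACT 10 d against 3 d and 18 for α1ACT 10 d against 24 h, the last also by DESeq2. Of the alternative values of named genes 675 kept direction and side of the threshold, 45 kept direction alone and 0 reversed; of the gene counts 230 stayed within 1.5 times and 64 did not, and of the medians 267 moved by less than the spread between replicates and 27 by more. No scaling moved the median of all genes by over 0.1.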
